A study of Mus musculus with 3 samples.

Results

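The CD28 family of co-receptors is represented here by 5 genes, Cd28, Icos, Ctla4, Pdcd1 and Btla, chosen by name among the 32285 gene features of the deposited matrices. Their raw UMIs (unique molecular identifiers, which mark each captured transcript) were summed over the annotated cells of each library, class and subcluster. The study profiled follicular T cells from mouse spleens, sorted and run on the 10x 3′ single-cell assay, 14 days after immunisation with liposomes carrying OVA (ovalbumin). The BKO library comes from mice labelled Siglec-G B-cell knockout, in which the inhibitory receptor Siglec-G is lost from B cells and not from the T cells measured. The WT samples, replicate 1 and replicate 2, come from wild-type mice with the same immunisation. BKO and WT replicate 1 are labelled batch 1 and WT replicate 2 batch 2. The sources used here do not give the strain, the age, the number of mice in each library, the Cre line or the antibodies of the sort, so whether any of the 5 proteins served as a gate is not known here.

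These co-receptors are immunoglobulin-fold proteins on the T cell surface that tune the signal of the T cell receptor. CD28 and ICOS activate: CD28 binds CD80 and CD86 and recruits phosphoinositide 3-kinase, and ICOS, which binds ICOS ligand on B cells, keeps follicular helper T cells (Tfh) in place. CTLA-4 takes the ligands of CD28 away from it and is a main tool of regulatory T cells, including the follicular regulatory T cells (Tfr) that express Foxp3 and restrain the germinal centre. PD-1, encoded by Pdcd1, binds PD-L1 and PD-L2 and is abundant on Tfh cells, while BTLA binds the tumour necrosis factor receptor family member HVEM and also inhibits.

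The authors' tables class 8433 BKO cells, 5143 cells of WT replicate 1 and 5117 of WT replicate 2 as Tfh or Tfr. The 5721 barcodes of WT replicate 2 include all 5554 of WT replicate 1, so both WT samples read the same cells. They were treated as 1 library read in 2 runs. Each genotype therefore has 1 library, no difference has a replicate check, and no p-value is given. A gene was called when its mean was at least 20 CPM (UMIs of the gene per 1000000 UMIs of the class) and BKO lay at least 1.5 times above or below both WT runs. Intervals are exact 95% intervals of the counts and cover counting error only. The deposited counts were made with different Cell Ranger versions in BKO and WT, which differ by default in whether reads in introns count, and the sources used here do not say what was done. Class totals ranged from 8309616 UMIs (Tfr, WT replicate 1) to 43702235 UMIs (Tfh, BKO). The T cell marker genes Cd3e, Cd3d, Cd4 and Trac were detected in every class and library. They summed to 3718 CPM in BKO Tfr cells, against 2840 and 2898 CPM in WT, and to 3644 CPM in BKO Tfh cells, against 2985 and 3093 CPM in WT. Their median log2 ratio of BKO over WT was 0.41 in Tfr and 0.28 in Tfh cells, with Cd4 on the other side at -0.25 and -0.14, beside -0.09 and -0.10 for the median of all genes tested. These ratios are near in size to those given below for Icos and Pdcd1 in Tfr cells and for Ctla4 in Tfh cells. B cell markers summed to 2.40 to 8.64 CPM. Markers of CD8 T and NK cells summed to 39.7 CPM in BKO Tfr cells, against 90.3 and 64.2 CPM in WT, and to 36.6 CPM in BKO Tfh cells, against 259 and 239 CPM in WT. Most of each sum came from 1 gene, Nkg7, at 26.6 CPM in BKO Tfr cells, against 78.7 and 53.8 CPM in WT, and at 27.6 CPM in BKO Tfh cells, against 249 and 230 CPM in WT. Gzma lay the other way, at 2.11 CPM in BKO Tfh cells, against 0.96 and 1.00 CPM in WT. Cd8a was at 0 in 3 of the 4 WT sums and Ncr1 was at 0 in 5 of the 6 sums. The part of these marker differences in the results below was not tested.

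On the mm10 build, 4 of the genes lie on chromosome 1. Cd28 (ENSMUSG00000026012) spans 60716800 to 60773359, Ctla4 (ENSMUSG00000026011) 60887000 to 60915832 and Icos (ENSMUSG00000026009) 60977927 to 61000320, all on the plus strand, so these 3 genes are neighbours. Pdcd1 (ENSMUSG00000026285) lies apart at 94038305 to 94052553 on the minus strand. Btla (ENSMUSG00000052013) is on the plus strand of chromosome 16, from 45224315 to 45257670. Introns make up 50438 bases of Cd28, 26503 of Ctla4, 18964 of Icos, 12319 of Pdcd1 and 29960 of Btla. The annotation also places Rpl18-ps1 within Ctla4 and Gm37039 within Icos on the same strand, and the sources used here do not say how reads in these overlaps were assigned.

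RefSeq's promoter table for GRCm38.p6 holds 3 of the 5 genes, the inhibitory ones. The 250 bases before each start are shown because Ctla4, Pdcd1 and Btla differed in direction between BKO and WT, as described below. Each is written 5′ to 3′ on the strand of its gene, and capitals mark the core that NFAT factors bind (GGAAA on either strand). The RefSeq starts differ from the outermost gene starts given above, so the Ctla4 window lies within the annotated span of Ctla4 and the Btla window runs past the start of Btla. The windows are chr1:60908775-60909024 on the plus strand, chr1:94052554-94052803 on the minus strand and chr16:45224087-45224336 on the plus strand.
Ctla4: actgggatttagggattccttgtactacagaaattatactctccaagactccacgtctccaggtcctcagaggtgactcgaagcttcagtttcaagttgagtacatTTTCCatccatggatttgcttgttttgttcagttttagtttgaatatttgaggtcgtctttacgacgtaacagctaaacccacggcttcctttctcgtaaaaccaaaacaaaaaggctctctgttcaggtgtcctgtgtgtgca
Pdcd1: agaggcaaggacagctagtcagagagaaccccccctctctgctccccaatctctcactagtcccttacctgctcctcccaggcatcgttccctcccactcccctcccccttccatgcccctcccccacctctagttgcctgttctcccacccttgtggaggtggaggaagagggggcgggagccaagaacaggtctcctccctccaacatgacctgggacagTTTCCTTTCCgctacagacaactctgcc
Btla: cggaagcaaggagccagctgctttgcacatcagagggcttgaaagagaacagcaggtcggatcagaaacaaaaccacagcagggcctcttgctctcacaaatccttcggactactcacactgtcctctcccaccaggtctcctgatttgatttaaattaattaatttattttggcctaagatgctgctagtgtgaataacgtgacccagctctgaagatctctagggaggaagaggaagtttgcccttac
The core occurred 1 time before Ctla4, from 144 bases before the start, and 2 times side by side before Pdcd1, from 28 and 23 bases before the start, each time on the opposite strand. It was not found in the Btla window. Of all 32851 promoters of this length in the table, 55.6% hold the core, so its presence is common. The AP-1 motif TGANTCA, held by 6.75% of promoters, and the forkhead motif TGTTTAC, held by 3.17%, were not found in these 3 windows on either strand. A match describes the letters only.

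Of the activating receptors, Icos was the one with the higher level in BKO. In Tfr cells Icos stood at 524 CPM in BKO (interval 512 to 535), against 371 CPM (358 to 384) and 385 CPM (375 to 396) in WT replicates 1 and 2. In Tfh cells it stood at 293 CPM in BKO, against 264 and 261 CPM in WT. The BKO value lay above both WT runs in each class, with log2 ratios to the WT mean of 0.47 in Tfr and 0.16 in Tfh cells. With BKO weighted to the subcluster makeup of WT, a setting described further on, they were 0.21 and 0.23, so no order of the classes is given. Cd28 lay on the other side, at 277 CPM in BKO Tfr cells (interval 268 to 285), against 326 CPM (313 to 338) and 318 CPM (308 to 327) in WT. In Tfh cells Cd28 was at 388 CPM in BKO, against 427 and 423 CPM in WT. Its log2 ratios of -0.22 in Tfr and -0.13 in Tfh cells stand beside a median gene at -0.09 and -0.10. With TMM scaling, which moves the median of all genes by 0.11 in Tfr and 0.16 in Tfh cells, the Cd28 ratio became -0.10 in Tfr and 0.03 in Tfh cells, and with the running median of all genes' ratios over intron length taken off it became 0.01 and 0.09, so no direction is given for it. Neither gene met the size rule in either class.

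Ctla4 was the member with the largest difference. In Tfr cells it stood at 615 CPM in BKO (interval 603 to 628), against 357 CPM (344 to 370) and 355 CPM (345 to 365) in WT, which is 1.73-fold higher (log2 ratio 0.79). It was the 1 member of 5 called higher in Tfr cells, where 0.887% of the 6539 genes tested were called higher, 2.4% lower and 3.29% either way. In Tfh cells Ctla4 stood at 181 CPM in BKO (177 to 185), against 148 CPM (143 to 154) and 143 CPM (139 to 147) in WT, a log2 ratio of 0.31 that stays under the size rule. No member was called in Tfh cells, where 0.396% of 6559 genes were called higher, 2.45% lower and 2.85% either way. TMM scaling moved the split of all calls, to 104 higher and 74 lower in Tfr cells, against 58 and 157 as measured, and to 63 higher and 83 lower in Tfh cells, against 26 and 161, and Ctla4 in Tfr cells kept its call with TMM scaling but lost it with the subcluster makeup of WT (log2 ratio 0.48). The largest difference between the WT runs over the members and classes was 0.06 on the log2 scale, for Btla in Tfr cells. It measures a second reading of the same cells and not the spread between mice.

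The other inhibitory receptors went opposite ways. Pdcd1 stood at 238 CPM in BKO Tfr cells (interval 231 to 246), against 190 CPM (181 to 200) and 185 CPM (178 to 193) in WT. In Tfh cells it was at 303 CPM in BKO (298 to 308), against 236 CPM (229 to 243) and 238 CPM (233 to 244) in WT. Its ratio was thus alike in both classes, with log2 values of 0.34 and 0.36. Btla was at 192 CPM in BKO Tfr cells (185 to 199), against 242 CPM (231 to 252) and 253 CPM (244 to 261) in WT. In Tfh cells it was at 273 CPM in BKO (269 to 278), against 330 CPM (321 to 338) and 335 CPM (329 to 342) in WT, and its log2 ratios were -0.36 in Tfr and -0.28 in Tfh cells. Neither was called. For Icos, Ctla4, Pdcd1 and Btla the sign of the ratio stayed the same in both classes under each of the 12 other settings tried. Not all of these could turn a sign. Dropping the minimum of CPM leaves each ratio as it is, and leaving out a WT run keeps largely the same cells. A larger pseudocount moves genes of this level little. The size of the Btla ratio did not stay the same, and the median gene lay at -0.09 in Tfr and -0.10 in Tfh cells. Of the genes tested, 15.8% in Tfr and 23.0% in Tfh cells had a lower ratio than Btla. With TMM scaling the Btla ratio was -0.25 in Tfr and -0.12 in Tfh cells. With the intron length trend taken off it was -0.23 and -0.15.

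**Figure D1:**
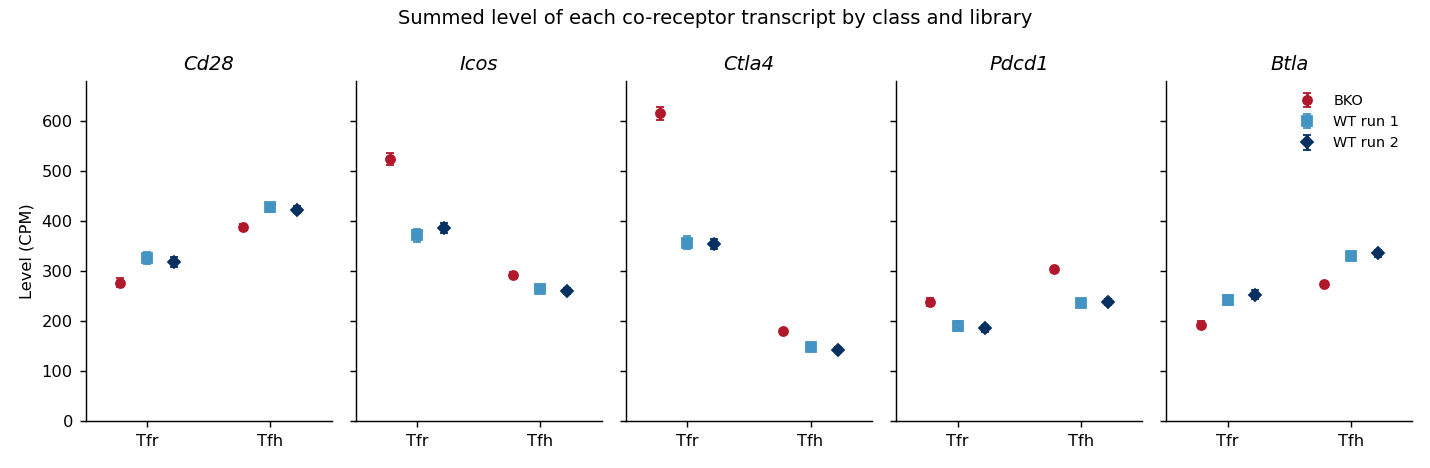
Summed level in CPM (vertical axes, from 0) of each co-receptor transcript in Tfr and Tfh cells, with 1 point for BKO and for each WT run and bars for the exact 95% counting interval. BKO points lie above both WT points for Icos, Ctla4 and Pdcd1 and below them for Btla, as for Cd28, whose direction other scalings turned, and the widest gap is that of Ctla4 in Tfr cells, at 615 against 357 and 355 CPM.

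Between the classes, Ctla4 and Icos were higher in Tfr cells and Cd28, Pdcd1 and Btla were higher in Tfh cells, in BKO and in both WT runs. For Ctla4 the Tfr level was 3.40 times the Tfh level in BKO, and 2.40 and 2.48 times in the WT runs. This passed the size rule of 1.5-fold in all 3 samples, which 2.35% of 6552 genes passed on the side of Tfr, 1.86% on the side of Tfh and 4.21% on either side. For Icos the log2 ratio of Tfr over Tfh was 0.84 in BKO, and 0.49 and 0.56 in WT. Without weighting for subclusters, the gap between classes was thus wider in BKO for Ctla4 and Icos, with log2 ratios for Ctla4 of 1.76 in BKO and 1.26 and 1.31 in WT. For Cd28 the log2 ratio was -0.49 in BKO and -0.39 and -0.41 in WT, for Pdcd1 -0.34 in BKO and -0.31 and -0.36 in WT, and for Btla -0.51 in BKO and -0.45 and -0.41 in WT. The difference between these ratios has 1 library on each side and was not tested. Foxp3 stood at 349 CPM in BKO Tfr cells, against 356 and 331 CPM in WT. The rule by which the authors set the classes is not known here. If it used Foxp3, like levels would follow from it, so they do not show that the classes are alike. In Tfh cells Foxp3 was at 1.33 CPM in BKO and at 0.80 and 16.5 CPM in WT.

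The authors cut the classes into subclusters, of which numbers 0 to 4 in each class held at least 100 cells in every library. The peak of each co-receptor among these 10 lay in the same subcluster in BKO and in both WT runs. Subcluster numbers were made from these transcriptomes, so the levels are given as a description. Ctla4 was highest in Tfr subcluster 1, at 912 CPM in BKO and 603 and 568 CPM in WT. It was lowest in Tfh subcluster 0, at 90.4 CPM in BKO and 59.8 and 57.6 CPM in WT. Icos also peaked in Tfr subcluster 1, at 821 CPM in BKO and 660 and 684 CPM in WT. Pdcd1 and Btla shared a different place, subcluster 3 of each class. Btla reached 426 CPM there in BKO Tfh cells, against 621 and 631 CPM in WT, and Pdcd1 390 CPM in BKO, against 349 and 356 CPM in WT. For Pdcd1 the next in order was Tfh subcluster 0 in BKO, at 355 CPM, with Tfr subcluster 3 after it at 342 CPM. In both WT runs Tfr subcluster 3 was the next, at 349 and 312 CPM, and in WT replicate 1 the intervals of the top pair overlap (317 to 384 in Tfr and 329 to 371 in Tfh). Tfh subcluster 3 also held 150 CPM of Il21, the cytokine by which Tfh cells drive the germinal centre, in BKO and 135 and 152 CPM in WT. Cd28 was highest in Tfh subcluster 0, at 496 CPM in BKO and 534 and 526 CPM in WT. The transcription factor gene Tcf7 stood there at 858 CPM in BKO and 827 and 834 CPM in WT. The Tfh marker gene Cxcr5 stood there at 347 CPM in BKO and 282 and 283 CPM in WT, its highest among the large Tfh subclusters. Over 20 profiles (10 subclusters in BKO and in WT replicate 2) log2 levels of Icos and Ctla4 correlated at r = 0.76, Pdcd1 and Btla at 0.59, and Cd28 and Ctla4 at -0.85. These profiles share libraries, and the values describe them only.

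**Figure D2:**
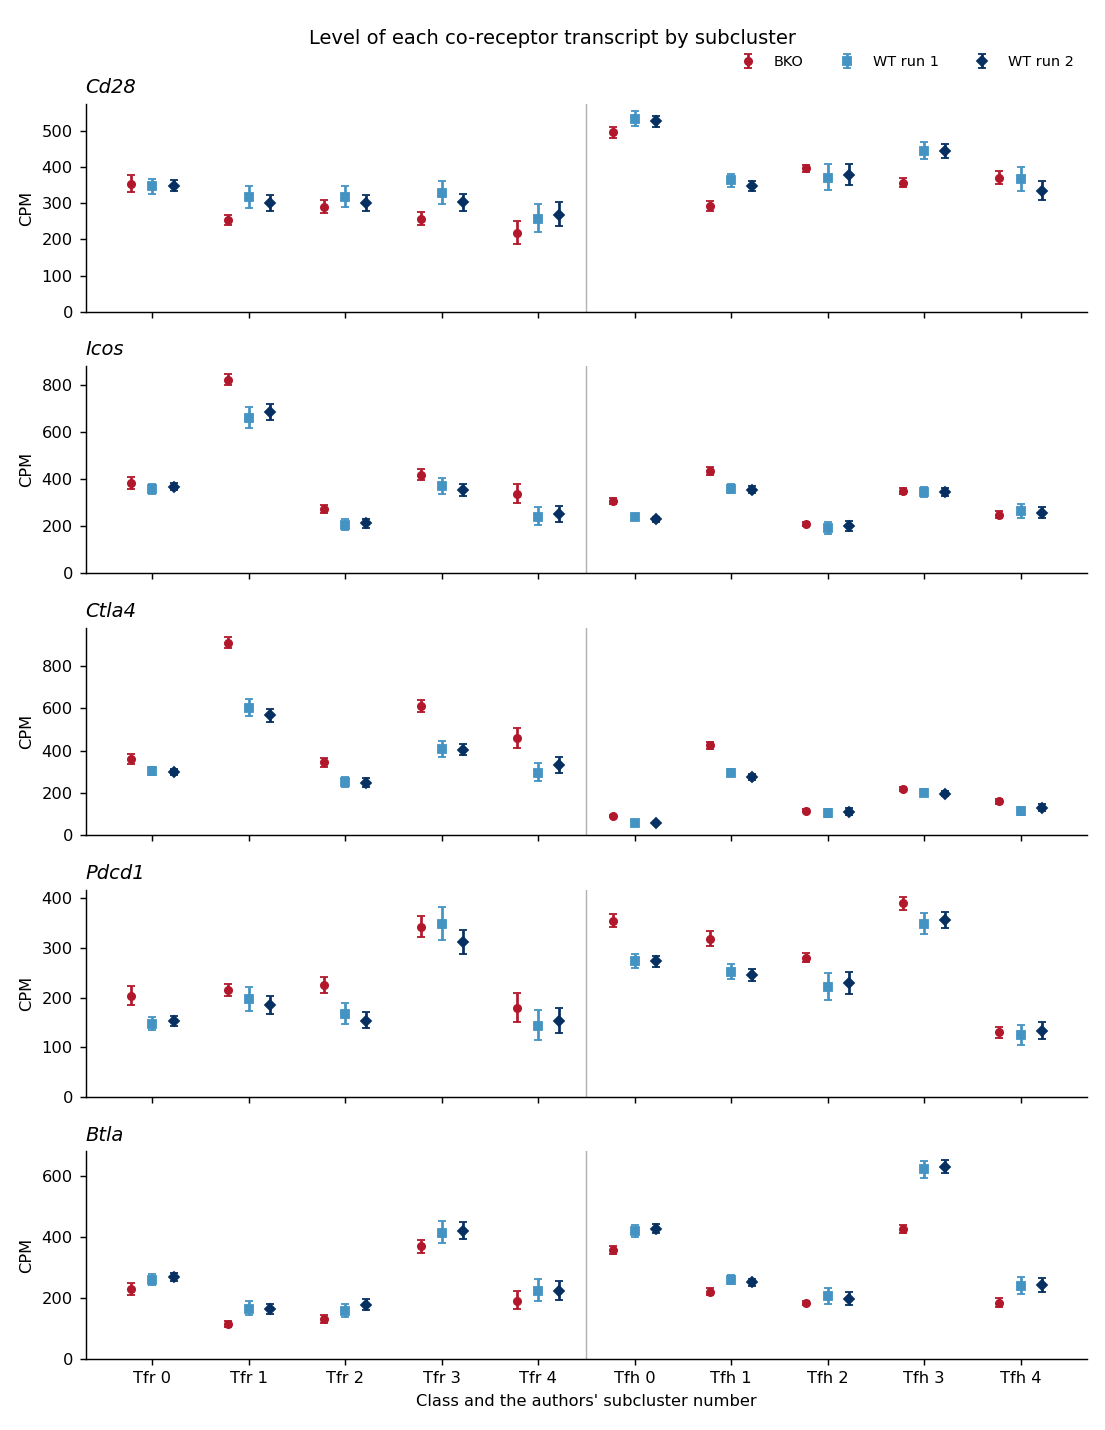
Level in CPM (vertical axes, from 0) of each co-receptor in Tfr subclusters 0 to 4 and Tfh subclusters 0 to 4 (horizontal axis), with points for BKO and the WT runs and bars for exact 95% counting intervals. Ctla4 and Icos peak in Tfr subcluster 1, at 912 and 821 CPM in BKO, while Btla peaks in Tfh subcluster 3, at 426 CPM in BKO and 621 and 631 CPM in WT.

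Within subclusters the directions held for most members. The Ctla4 ratio was above 0 in 10 of 10, with log2 values from 0.12 in Tfh subcluster 2 to 0.64 in Tfr subcluster 1. In 8 of 10 the counting interval against each WT run also lay above 0. Pdcd1 was above 0 in 10 of 10 as well, from 0.02 to 0.48, and in 6 of 10 beyond counting error. Icos was above 0 in 9 of 10, from -0.07 in Tfh subcluster 4 to 0.46 in Tfr subcluster 4. Btla was below 0 in 10 of 10, from -0.55 in Tfh subcluster 3 to -0.14 in Tfh subcluster 2, and in 8 of 10 beyond counting error. With the shift of TMM scaling added, Btla was below 0 in 9 of 10 and Icos above 0 in 10 of 10, and Ctla4 and Pdcd1 kept 10 of 10. Cd28 was mixed, with 3 subclusters above 0 and 7 below, or 5 and 5 with that shift. The largest difference between the WT runs in a subcluster was 0.19 on the log2 scale, for Ctla4 in Tfh subcluster 4.

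**Figure D3:**
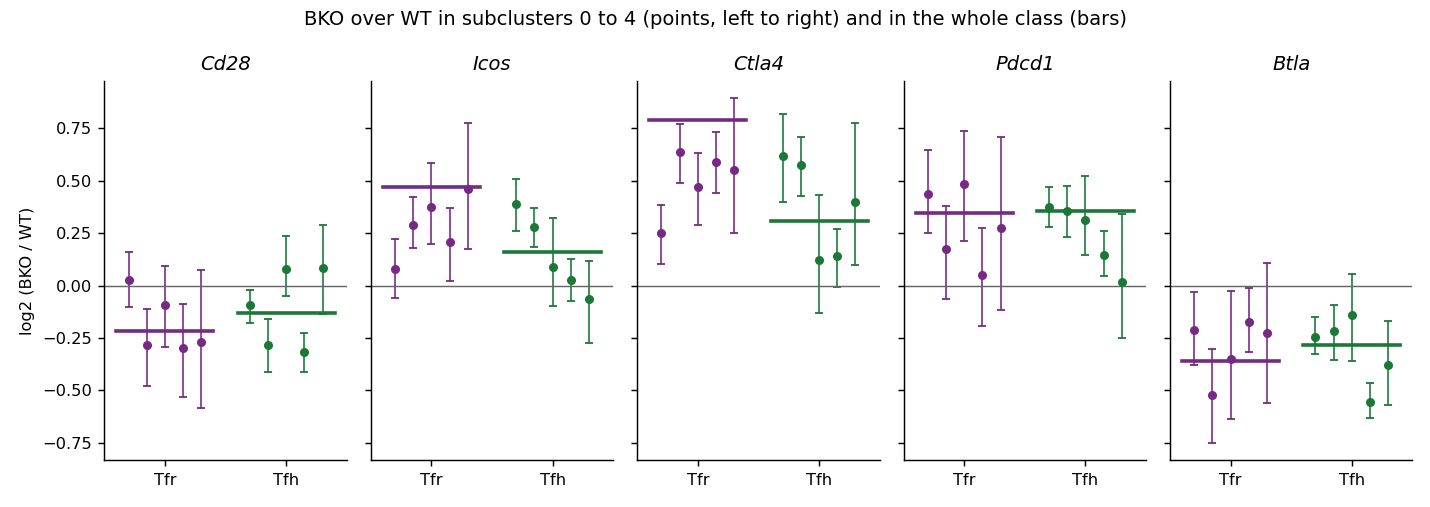
Log2 ratio of BKO over the WT mean (vertical axis, 0 means equal) for each co-receptor, with points for subclusters 0 to 4 from left to right within each class and bars that span the 95% counting intervals against both WT runs. The thick line is the ratio of the whole class, and for Ctla4 in Tfr cells it lies at 0.79, above each of its 5 subclusters, of which the highest is at 0.64.

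The whole-class ratio of Ctla4 in Tfr cells exceeded that of each subcluster, while the libraries drew unlike shares of cells from them. Tfr subcluster 1, the richest in Ctla4 and Icos, held 36.3% of BKO Tfr cells (interval 34.2 to 38.4), against 16.2% (14.3 to 18.2) and 17.1% (15.2 to 19.2) in WT. Subcluster 0 held 15.4% of BKO Tfr cells (13.8 to 17.0), against 39.1% (36.6 to 41.7) and 39.96% (37.4 to 42.5) in WT. Because the subclusters were cut from the same transcripts, these sizes are given as weights and not as a result. Subcluster 1 supplied 53.8% of the Ctla4 UMIs of BKO Tfr cells (52.8 to 54.9), against 27.6% (26.0 to 29.3) and 27.7% (26.4 to 29.0) in WT, and 57.0% of the Icos UMIs in BKO (55.9 to 58.1), against 29.1% (27.5 to 30.7) and 30.7% (29.5 to 32.0) in WT. When BKO levels were weighted to the subcluster makeup of WT, the log2 ratio of Ctla4 in Tfr cells was 0.48, which is under the size rule and ends the call. By the same weighting Icos in Tfr cells was at 0.21, Pdcd1 at 0.30, Btla at -0.25 and Cd28 at -0.10. In Tfh cells the weighting moved Ctla4 the other way, to 0.40, with Icos at 0.23, Pdcd1 at 0.24, Btla at -0.33 and Cd28 at -0.16. These Tfh values lean on Tfh subcluster 5, which held 11 BKO cells, against 359 and 363 in WT. With subclusters of at least 100 cells only, an alternative added after seeing the data, Ctla4 was at 0.45 and Icos at 0.22. Pdcd1 was then at 0.29, Btla at -0.34 and Cd28 at -0.16.

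**Figure D4:**
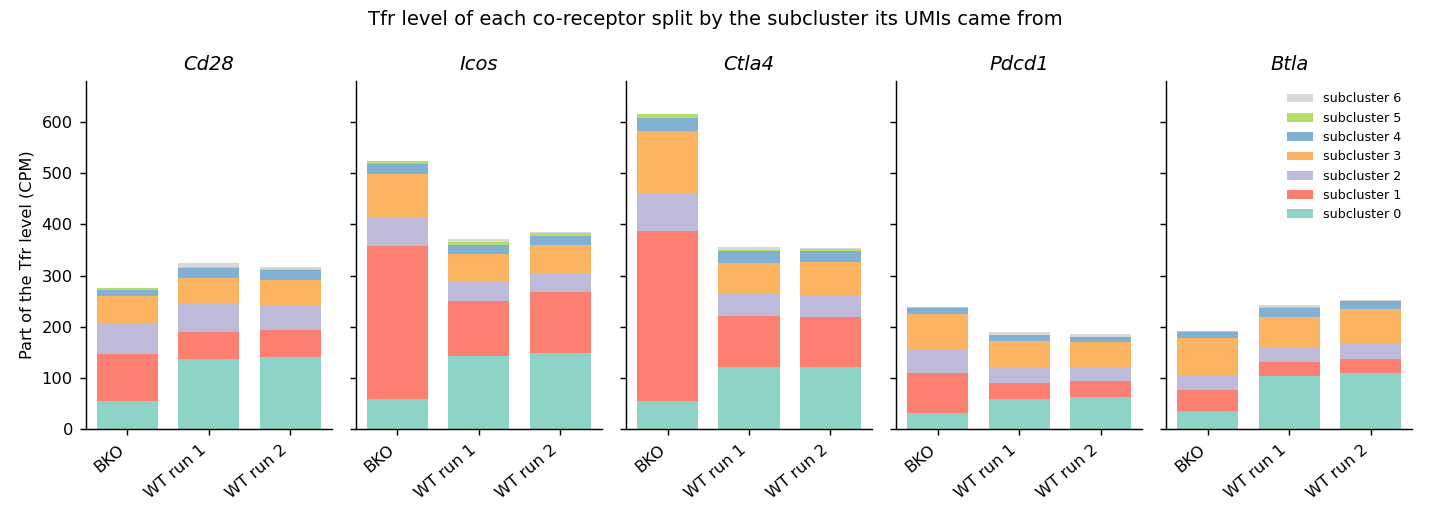
Tfr level of each co-receptor in CPM (bar height, from 0) in BKO and in each WT run, split by the subcluster that its UMIs came from. The part from subcluster 1 is 331 CPM of Ctla4 in BKO and 98.6 and 98.2 CPM in WT, and 298 CPM of Icos in BKO and 108 and 118 CPM in WT.

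Tfh subcluster 1 stood out among the Tfh cells for its Ctla4, at 425 CPM in BKO and 295 and 276 CPM in WT, near the level of Tfr subcluster 0 (360 CPM in BKO, and 305 and 299 CPM in WT). It also carried other genes of regulatory T cells. Ikzf2, which encodes the factor Helios, was at 3342 CPM in BKO and 3407 and 3471 CPM in WT, while it was at 701 to 1481 CPM in the other 4 large Tfh subclusters and at 2113 to 3622 CPM in Tfr subclusters 0 to 4. Tnfrsf18, which encodes the receptor GITR, was at 361 CPM in BKO and 296 and 261 CPM in WT. Foxp3 itself was at 2.49 CPM in BKO and 1.59 CPM in WT replicate 1, but at 46.1 CPM in the more deeply sequenced WT replicate 2. The deposited cell tables give other UMI totals for WT replicate 2 than its matrix, by a median factor of 1.52 (matrix over table), so the counts behind its classes are not known here. Of its 917 cells in WT replicate 1 that were annotated in both runs, 210 (22.9%, interval 20.2 to 25.8) were classed as Tfr in WT replicate 2. Such cells were 2.04% of subcluster 0 and 3.93% of subcluster 3. Over all subclusters, 527 of 5068 WT cells (10.4%, interval 9.57 to 11.3) changed class between runs. Those classed Tfh in replicate 1 and Tfr in replicate 2 had 293 and 306 CPM of Ctla4 in the runs, those classed the other way 315 and 299 CPM, cells classed Tfr in both 371 and 366 CPM, and cells classed Tfh in both 135 and 131 CPM. In the same order of groups, Foxp3 was at 1.34 and 182 CPM, 219 and 125 CPM, 389 and 365 CPM, and 0.36 and 8.03 CPM. The part of Foxp3 detection in the change of class was not tested. With WT cells of the same class in both runs, the Ctla4 ratio of BKO over WT was 0.74 in Tfr and 0.44 in Tfh cells. All BKO cells were kept, since BKO has 1 run. Taking cells of intermediate Ctla4 from WT alone lowers the Tfr ratio and raises the Tfh ratio by construction. Without Tfh subcluster 1, the log2 ratio of Ctla4 in Tfr over Tfh cells was 2.11 in BKO and 1.78 and 1.77 in WT. That subcluster held the most Ctla4 of the Tfh cells, so leaving it out raises this ratio by construction.

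Shares of cells with a UMI were taken after each cell was thinned to 2500 UMIs, with 2 to 194 shallower cells left out per class and library. Ctla4 was seen in 63.1% of BKO Tfr cells (interval 61.0 to 65.2), against 51.9% (49.2 to 54.6) and 48.6% (46.0 to 51.2) in WT, and in 27.3% of BKO Tfh cells (26.2 to 28.4), against 23.9% (22.5 to 25.3) and 23.3% (21.97 to 24.8) in WT. Without thinning the Tfr shares were 84.9% in BKO and 69.5% and 78.3% in WT. Icos was seen in 60.7% of BKO Tfr cells (58.5 to 62.8), against 50.3% (47.6 to 53.0) and 53.1% (50.5 to 55.7) in WT. In Tfh cells the Icos shares had overlapping intervals, at 41.9% in BKO (40.6 to 43.1) and 41.0% (39.4 to 42.7) and 40.7% (39.1 to 42.3) in WT. Pdcd1 was seen in 47.2% of BKO Tfh cells (46.0 to 48.4), against 39.7% (38.1 to 41.3) and 39.9% (38.3 to 41.5) in WT. Btla was seen in 30.5% of BKO Tfr cells (28.5 to 32.6), against 37.4% (34.8 to 40.005) and 40.4% (37.8 to 42.9) in WT. Unthinned, the Icos shares in Tfr cells were 83.8% in BKO and 70.4% and 81.1% in WT, the Pdcd1 shares in Tfh cells 71.8% in BKO and 55.4% and 67.7% in WT, and the Btla shares in Tfr cells 57.9% in BKO and 58.5% and 71.2% in WT. Free RNA can give a UMI to a cell that does not express the gene, and no annotated cell type that lacks these genes was at hand to measure it.

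Many cells held transcripts of several family members. At 2500 UMIs, 3 or more of the 5 were seen in 46.5% of BKO Tfr cells (interval 44.4 to 48.7), against 41.4% (38.8 to 44.0) and 41.9% (39.3 to 44.5) in WT. In Tfh cells the shares were 38.2% in BKO (37.0 to 39.4) and 37.4% (35.8 to 39.0) and 38.2% (36.6 to 39.8) in WT. Of the 10 pairs, Icos and Ctla4 were found together in Tfh cells more often than the product of their shares, by a factor of 1.22 in BKO and 1.26 and 1.31 in WT. In Tfr cells the factor was 1.10 in BKO and 1.11 and 1.09 in WT. Pdcd1 and Btla had factors of 1.03 in BKO Tfh cells and 1.15 and 1.13 in WT, and Ctla4 and Btla lay just under 1, at 0.95 in BKO and 0.97 and 0.96 in WT. The cells of a class mix subclusters with unlike levels, and the factors are given as a description.

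The genes whose levels ran most like each member were sought over the same 20 profiles. For Ctla4 they were Pim1, a survival kinase (r = 0.97), Ica1 (0.95) and Tnfrsf18 (0.95). Pim1 was at 257 CPM in BKO Tfr cells, against 169 and 172 CPM in WT, and at 100.02 CPM in BKO Tfh cells, against 72.8 and 71.5 CPM in WT. Tnfrsf18 was at 518 CPM in BKO Tfr cells, against 371 and 339 CPM in WT. Ica1 was at 28.6 CPM in BKO Tfr cells, against 21.4 CPM in each WT run. In Tfh cells, where it was under the minimum of 20 CPM, Ica1 lay the other way. It was at 6.59 CPM in BKO Tfh cells, against 10.4 and 8.93 CPM in WT. None of these genes was called between BKO and WT. For Icos they were Glipr1 (0.90), the transcriptional cofactor Lbh (0.86) and Podnl1 (0.85). For Pdcd1 they were the DNA ligase gene Lig1 (0.96), Rnf157 (0.93) and the G protein subunit gene Gna13 (0.90). For Btla they were the chromatin remodeller gene Ino80 (0.93), Ankrd28 (0.92) and Mfsd4a (0.91), and for Cd28 Hs3st3b1 (0.95), the transcriptional regulator gene Lmo4 (0.93) and the sialyltransferase gene St8sia1 (0.93).

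Of the 6 ligand genes of the family, 3 reached the minimum of 20 CPM in these T cells and none was called in the 3 comparisons. Pdcd1lg2, which encodes PD-L2, was at 79.998 CPM in BKO Tfr cells, against 86.9 and 80.8 CPM in WT. Cd274, which encodes PD-L1, was at 64.4 CPM in BKO Tfr cells, against 75.9 and 74.7 CPM in WT. Cd80 was at 36.4 CPM in BKO Tfr cells, against 43.9 and 46.8 CPM in WT. Cd86, Icosl and Tnfrsf14 (which encodes HVEM) stayed under the minimum in both classes.

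Among 22 genes of costimulatory signalling, 22 were tested in Tfr and 21 in Tfh cells, and none was called higher in BKO. In Tfr cells 3 were called lower, 2 of which are described here, and in Tfh cells 1, where 2.4% and 2.45% of all genes tested were called lower, so the Tfh count is near that background. Grap2, which encodes the adaptor GADS that joins CD28 to SLP-76, was lower in both classes, at 95.8 CPM in BKO Tfr cells, against 197 and 195 CPM in WT, and at 152 CPM in BKO Tfh cells, against 306 and 295 CPM in WT. Themis, which encodes a T cell receptor signalling adaptor, was called lower in Tfr cells, at 199 CPM in BKO and 388 and 373 CPM in WT. Of the 157 genes called lower in Tfr cells, 74 kept the call with TMM scaling and 37 with the intron length trend taken off. Whether the genes named in this and the other lists kept theirs is not reported here. The abundant kinase genes were not called: Fyn was at 827 CPM in BKO Tfr cells, against 937 and 897 CPM in WT, and Lck at 568 CPM, against 598 and 554 CPM. The median log2 ratio of the list was -0.33 in Tfr and -0.21 in Tfh cells, while that of all genes tested was -0.09 and -0.10. Between the classes 3 of 22 were called lower in Tfr than in Tfh cells, Grap2 and Themis among them, beside 1.86% of all genes tested.

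Among 9 genes of inhibitory signalling, which include the phosphatases that PD-1 and BTLA recruit, none was called between BKO and WT. The median log2 ratio was -0.22 in Tfr and -0.07 in Tfh cells. Ptpn11, which encodes the phosphatase SHP-2, was called lower in Tfr than in Tfh cells, at 100.03 against 245 CPM in BKO, 97.1 against 199 CPM in WT replicate 1 and 94.3 against 193 CPM in WT replicate 2. This was 1 of 9, beside 1.86% of all genes tested. The 3 of highest level were Ptpn22, at 344 CPM in BKO Tfr cells, against 351 and 346 CPM in WT, the ubiquitin ligase gene Cblb, at 235 CPM in BKO, against 280 and 284 CPM in WT, and the diacylglycerol kinase gene Dgka, at 175 CPM in BKO, against 236 and 234 CPM in WT.

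CTLA-4 cycles between the surface and vesicles, and 7 genes of that traffic were tested in each class. Rab11a, which encodes a GTPase of recycling endosomes, was called higher in Tfr cells, at 165 CPM in BKO and 109 and 102 CPM in WT (log2 ratio 0.65). Trat1, which encodes the adaptor TRIM that carries CTLA-4 to the surface, was called lower in Tfh cells, at 36.3 CPM in BKO and 76.1 and 74.95 CPM in WT (-1.05). In Tfr cells Trat1 was at 49.6 CPM in BKO, against 74.0 and 76.1 CPM in WT, and was not called. Lrba, which encodes the protein that keeps CTLA-4 from lysosomes, was at 577 CPM in BKO Tfr cells, against 523 and 540 CPM in WT. Rab8a was at 96.0 CPM in BKO Tfr cells, against 93.8 and 90.5 CPM in WT. Thus 1 of 7 was called higher in Tfr cells and 1 of 7 lower in Tfh cells, where 0.887% and 2.45% of all genes tested were. The list medians were 0.06 in Tfr and -0.04 in Tfh cells.

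Of 15 regulators of the members, 15 were tested in Tfr and 13 in Tfh cells. Prdm1, which encodes Blimp-1, a factor of effector regulatory T cells, was the only one called between BKO and WT, at 55.9 CPM in BKO Tfr cells, against 22.9 and 23.1 CPM in WT (log2 ratio 1.26). Thus 1 of 15 was called higher in Tfr cells, where 0.887% of all genes tested were. Of the 58 genes called higher in Tfr cells, 18 kept the call with the subcluster makeup of WT. Whether Prdm1 did is not reported here. Tox was at 2390 CPM in BKO Tfr cells, against 3256 and 3176 CPM in WT, and Nfatc1 at 280 CPM, against 298 and 299 CPM, neither past the rule. Between the classes, Foxp3, Prdm1 and the AP-1 partner gene Batf were called higher in Tfr cells and Tcf7 lower. These are 3 and 1 of 15, beside 2.35% and 1.86% of all genes tested. Batf stood at 301 CPM in BKO Tfr against 149 CPM in BKO Tfh cells, and at 239 against 153 CPM and 227 against 143 CPM in the WT runs. Tcf7 stood at 226 CPM in BKO Tfr against 648 CPM in BKO Tfh cells, and at 242 against 528 CPM and 248 against 538 CPM in WT.

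Genes around the Cd28, Ctla4 and Icos cluster gave 1 call. Within 1000000 bases of these 3 genes lay 11 other protein-coding genes, of which 8 reached the minimum of 20 CPM in a class and 1 was called between BKO and WT, beside 3.29% of all genes tested in Tfr and 2.85% in Tfh cells. This was Raph1, at a log2 ratio of -0.50 in Tfr and -0.62 in Tfh cells, called in Tfh cells and not in Tfr cells. Bmpr2 was called higher in Tfr than in Tfh cells (0.69), as were 2.35% of all genes tested. Nop58, Fam117b, Ica1l, Wdr12, Nbeal1 and Abi2 were not called in any comparison, and their log2 ratios of BKO over WT ranged from -0.49 (Abi2) to 0.01 (Nop58) in Tfr cells and from -0.29 (Fam117b) to 0.07 (Nop58) in Tfh cells. Ica1l averaged 10.4 CPM in Tfr and 23.6 CPM in Tfh cells. It was thus under the minimum in Tfr cells and between the classes, where its log2 ratio was -1.20.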

How the data were processed

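For each sample the authors deposited a matrix of raw UMI counts, with tables of Tfh and Tfr cells that hold subcluster numbers and each cell's percent of mitochondrial UMIs. The submitters' processing notes name Cell Ranger and mm10. Per the file headers, cellranger-7.0.1 made the WT counts, while Cell Ranger 4 is named for BKO. The deposited tables hold cells under 4000 genes and under 10 percent mitochondrial UMIs. The WT matrices hold called cells and the BKO matrix 1275404 barcodes. Cells were matched by barcode, and the suffixes of the cell names were assigned to samples by barcodes, and for BKO and WT replicate 1 also by UMI totals. For WT replicate 2 the totals of the table equalled those of the matrix in 0% of cells. Median UMIs per annotated cell were 6431 in BKO, and 4584 and 7527 in WT replicates 1 and 2. The sources used here do not say how doublets were handled, and no doublet caller was run.

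Counts were summed by library, class and subcluster and divided by the total of the sum (CPM). Log2 ratios set BKO over the WT mean, each with 0.5 CPM added. The tests planned for replicates could not be used, since both WT samples read the same cells. A rule of size took their place, with 20 CPM and 1.5-fold as stated in the report. TMM factors came from edgeR 4.0.16, and other values from Python 3.11.15, numpy 2.4.6 and SciPy 1.17.1. Intervals are exact Poisson, conditional binomial or Clopper-Pearson intervals at 95%. For shares, each cell was thinned to 2500 UMIs.

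The members, the gene lists and the rule for named genes were chosen with earlier results of these data known. Named are the 5 members, list genes past the rule in any comparison, the 3 of highest mean CPM in each of 5 lists, the 3 genes of highest r with each member among genes averaging at least 20 CPM in a class, and genes near Cd28, Ctla4 and Icos. Nkg7, Gzma and the marker genes named in subclusters were chosen after their values were seen. Gene models came from the GENCODE annotation of the same assembly, and promoter sequences from RefSeq. Some genes that the rule names are not reported here.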

Additional observations from a re-analysis of the deposited data

Results flagged for a closer look

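The BKO matrix also holds barcodes that are not in the tables of cells. Over its 907649 barcodes with 1 to 50 UMIs, which together hold 1686503 UMIs, all 5 co-receptor transcripts were detected. Cd28 stood at 260 CPM there, against 359 CPM over the annotated BKO cells, and Icos at 286 CPM, against 353 CPM. Ctla4 stood at 350 CPM, against 293 CPM, and Pdcd1 at 289 CPM, against 286 CPM. Btla stood at 183 CPM, against 252 CPM. The annotated value of Ctla4 pools unlike classes, with 615 CPM in BKO Tfr and 181 CPM in BKO Tfh cells. The counts ran from 309 UMIs of Btla to 591 UMIs of Ctla4. At the levels of the annotated cells a pool of this size would hold UMIs of each gene, so detection alone tells little. The WT matrices hold no barcode of so few UMIs, so the same value could not be had for WT, and its part in the ratios of BKO over WT was not tested.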

How the results depend on the processing

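No paired analysis was possible because BKO has 1 library and both WT samples read the same cells. The BKO title gives no replicate number, and BKO shares its batch label with WT replicate 1 alone. The ratios of Icos, Ctla4, Pdcd1 and Btla kept their sign in both classes under the 12 alternatives, while Cd28 turned as given in the report. Some of the 12 could not turn a sign, such as the one without a minimum of CPM, so the count overstates the check. The log2 ratio of Ctla4 in Tfr cells ranged from 0.48 to 0.91, and it lost its call with the subcluster makeup of WT (0.48), also when this used subclusters of at least 100 cells, an alternative added after seeing the data (0.48). Leaving out WT replicate 1 or 2 gave 0.79 both times, and leaves a comparison of 1 library with 1 run. Counts of called genes moved more. In Tfr cells 215 genes were called, against 5536 without a minimum of CPM, 119 without the trend over intron length, and 72 with the makeup of WT by either weighting. In Tfh cells 187 were called, against 5960, 116, and 76 or 60 by the 2 weightings. Between the classes 276 were called, and 5227 without a minimum. Without a WT replicate the counts were 266 to 296 in Tfr cells, 198 to 236 in Tfh cells and 298 to 307 between the classes. The split of calls with TMM scaling stands in the report, and without the intron trend it was 71 higher and 48 lower in Tfr cells and 32 and 84 in Tfh cells. The cause of these moves was not tested. Shares of cells with a UMI rise with the number of UMIs kept, by construction.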

Other observations

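Cells over the ceiling of 4000 genes are left out of the comparisons above, apart from the alternative setting that put them back. In that setting the log2 ratio of Ctla4 was 0.70 in Tfr and 0.30 in Tfh cells. The BKO matrix held 400 such cells with a Foxp3 UMI, against 170 and 206 in WT replicates 1 and 2. Ctla4 stood at 404 CPM in these BKO cells, against 275 and 259 CPM in WT, and Icos at 311 CPM, against 276 and 266 CPM. Pdcd1 was at 199 CPM in BKO, against 167 and 151 CPM in WT, and Btla at 218 CPM, against 216 and 220 CPM. Of the cells over the ceiling without a Foxp3 UMI, the 421 of BKO held 155 CPM of Ctla4, and the 125 and 97 of WT held 114 and 116 CPM. How many of these cells are doublets was not tested.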
